A study of Mus musculus with 4 samples.

Results

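Of the 21878 rows in the count tables of CD24-sorted mouse liver cells, 10 were taken by gene symbol: Cd24a, the gene of the surface protein used for the sort, the keratins Krt7, Krt8, Krt18 and Krt19, and the biliary or progenitor markers Epcam, Sox9, Spp1, Cftr and Prom1. All 10 were present and all 10 passed the filter on low counts. The data are bulk RNA sequencing of C57BL/6 liver cells collected on magnetic columns (MACS). The labels call the cells hepatocytes in one field and liver progenitor cells in another. The HACY group (2 libraries) came from mice injected 3 times a week for 6 weeks with a mixture of the small molecules Y-27632, A-83-01, which blocks signalling by TGF-beta receptors, and CHIR99021, which blocks glycogen synthase kinase 3. The CCL4 group (2 libraries) came from mice given carbon tetrachloride, a liver toxin, in olive oil at 2 ml/kg, 2 times a week for 6 weeks. The labels give the age of all mice as 6 to 8 weeks in one field and 8 weeks at injection in another. They do not say whether HACY mice also had the toxin, whether mice were pooled, or whether replicates are separate animals, so p-values measure the spread between these libraries, which may be technical. No untreated group and no unsorted or CD24-negative fraction was analysed here, so neither a treatment's own effect nor the enrichment by the sort could be measured.

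CD24 is a small, heavily glycosylated protein held in the outer membrane by a lipid anchor. In liver it is used to collect progenitor-like and bile duct cells, but neutrophils, B cells and red cell precursors carry it as well. Keratins form filaments as pairs of a type II and a type I chain. KRT8 with KRT18 is the pair of hepatocytes and of simple epithelia generally, while KRT7 and KRT19 are added in cholangiocytes, the cells that line bile ducts. A reaction of bile duct cells to chronic injury is commonly followed by KRT19, EpCAM, SOX9 and osteopontin, the product of Spp1.

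By deposited FPKM, a value per transcript length and library size, the genes fell into 3 levels of abundance. Krt8, Krt18 and Spp1 lay between 435 and 1872 FPKM in every library. Cd24a, Sox9, Krt19, Krt7, Epcam and Prom1 lay between 1.27 and 25.2 FPKM, and Cftr between 0.0300 and 0.506 FPKM. Among the 21878 rows ranked by FPKM in each library, Krt8 was between the 12th and the 38th, while Krt19 was between the 5408th and the 8587th and Epcam between the 8876th and the 10365th. The RNA held much of the keratin pair that hepatocytes share with bile duct cells and little of the keratins and surface proteins that mark bile ducts. Between HACY and CCL4, Cftr rose and Prom1 fell, and the other 8 genes, Cd24a among them, did not pass the test.

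**Figure D1:**
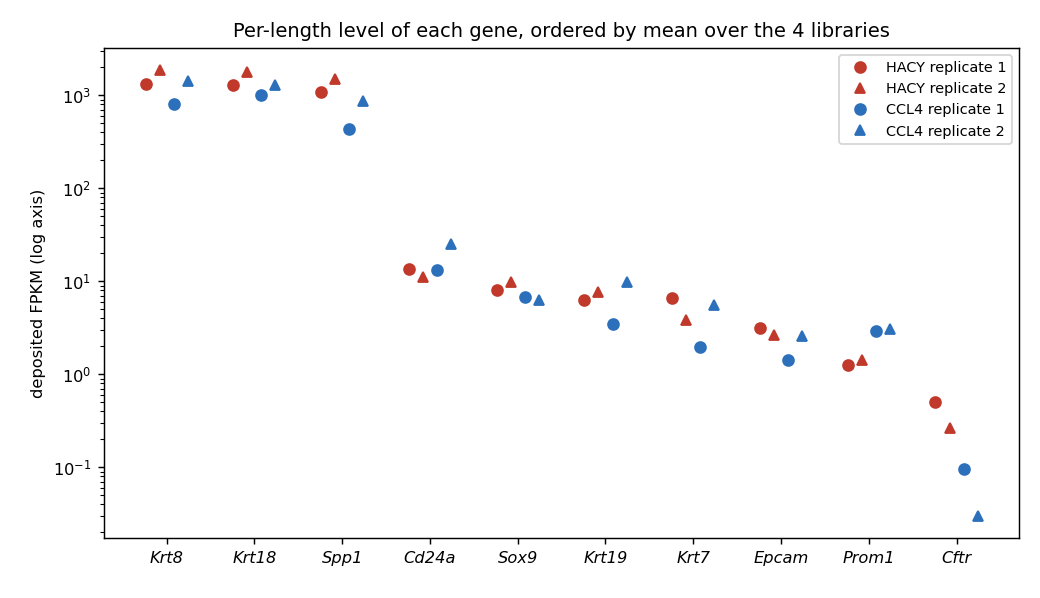
Deposited FPKM of the 10 genes (log axis) in each of the 4 libraries, 1 point per library, genes ordered by their mean. Krt8, Krt18 and Spp1 sit at 435 FPKM or more in every library, and all other genes at 25.2 FPKM or less.

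The order of the FPKM levels held few firm steps. The ranges of Krt8, Krt18 and Spp1 over the 4 libraries overlapped. Cd24a, from 11.3 to 25.2 FPKM, lay above Sox9, from 6.34 to 9.82, in all libraries. Sox9, Krt19 (3.47 to 9.83) and Krt7 (1.96 to 6.59) overlapped in sequence, as did Krt7 with Epcam (1.44 to 3.14) and Epcam with Prom1 (1.27 to 3.09). Cftr was below every value of the other genes.

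The test was made on counts, with edgeR's quasi-likelihood method over 13428 genes, and a change was called at a Benjamini-Hochberg adjusted p below 0.05. Levels in that comparison are CPM, counts scaled to library size and by edgeR's TMM factors, and fold changes are HACY over CCL4. Over all genes, 8.19% were called higher and 3.54% lower in HACY, the background for the counts of every list below. The 10 genes had 1 call in each direction, a share near that background. Of the 10, 8 had a positive fold change, with a median of 0.56 on the log2 scale, against 49.1% positive and a median of -0.01 over all genes. Groups did not overlap for 6 of the 10 genes, 5 with HACY above and 1 with HACY below, against 60.8% of all genes tested (30.7% above and 30.1% below). In bulk RNA a smaller number of cells of a type and less RNA in each of those cells cannot be told apart. Total counts ran from 18467299 to 19314219 per library. For 6 of the 10 genes the CCL4 replicates stood further apart, as a ratio, than the HACY replicates, and CCL4 replicate 2 was above CCL4 replicate 1 for 8 of the 10 genes in CPM.

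**Figure D2:**
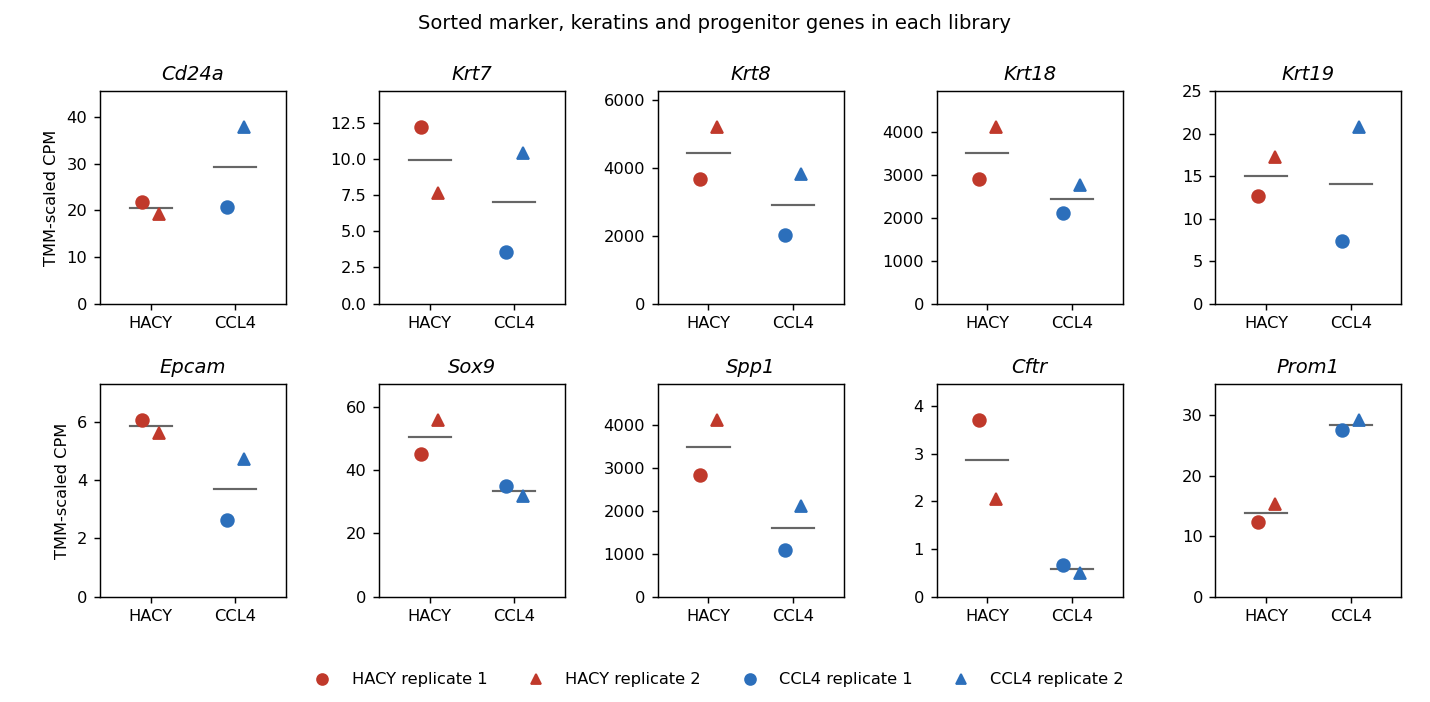
TMM-scaled CPM of each gene by library (linear axes from 0), with HACY left and CCL4 right, circles for replicate 1, triangles for replicate 2 and a line at the mean of 2. Cftr and Prom1 are the called genes, and Krt7, Krt8, Krt19, Epcam, Spp1 and Cd24a show CCL4 values far apart.

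Cd24a (chromosome 10, 43578284 to 43584265, plus strand, GRCm38) had 21.9 and 19.4 CPM in HACY replicates 1 and 2, and 20.7 and 38.002 CPM in CCL4 replicates 1 and 2. CCL4 replicate 2 stood apart, and the other CCL4 library lay between the HACY libraries. Means were 20.6 ± 1.80 CPM in HACY and 29.3 ± 12.2 CPM in CCL4 (SD, n = 2 each), a log2 fold change of -0.51 (SE 0.29, edgeR adjusted p = 0.279). With CCL4 replicate 1 left out the difference passed the threshold, at -0.88 (edgeR adjusted p = 0.0290). With CCL4 replicate 2 left out it was -0.0033. Of 10697 other genes with at least 5 CPM on average, those whose log2 CPM centred on their own mean lay nearest to Cd24a over the 4 libraries were Ube2t (Euclidean distance 0.045), Zfp428 (0.071), Zmat5 (0.077), Nxn (0.091) and Drap1 (0.098). The nearest among the other 9 genes described here was Prom1, at 0.89, and the farthest was Cftr, at 2.91. The 5 nearest genes were picked as the closest of 10697 over only 4 libraries, so their distances are small by selection. A link between them and Cd24a was not tested.

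Several neutrophil genes were also highest in CCL4 replicate 2, while Camp, Ltf, Ngp and Lcn2 were highest in HACY replicate 2. Ltf had 3.71 and 4.03 CPM in HACY and 0.0506 and 1.97 CPM in CCL4. S100a8, a calcium-binding protein gene abundant in neutrophils, had 2.57 and 3.06 CPM in HACY and 5.51 and 51.8 CPM in CCL4. S100a9, its partner, had 3.60 and 6.75 CPM in HACY and 11.8 and 112 CPM in CCL4. Cxcr2, a neutrophil chemokine receptor, had 0.819 and 0.738 CPM in HACY and 2.78 and 13.1 CPM in CCL4, and it was called lower (log2 -3.34, SE 0.76, edgeR adjusted p = 0.0349), a call lost without either HACY library, with limma-voom, with no filter and with log2(FPKM + 1). Summed over all 14 neutrophil markers the levels were 848 and 1404 CPM in HACY and 481 and 855 CPM in CCL4. Most of that sum was Lcn2, an iron-siderophore binding protein that injured hepatocytes also make (787 and 1347 CPM in HACY, 435 and 570 CPM in CCL4). Of 12 tested, Lcn2 was called higher and Cxcr2 lower, with a median log2 fold change of -0.49. The Lcn2 call was lost with upper-quartile scaling, with no filter, with log2(FPKM + 1) and without HACY replicate 2 or CCL4 replicate 1. Leaving out CCL4 replicate 1 gave 8 falls and no rise, and leaving out CCL4 replicate 2 gave 5 rises and 1 fall. Cd22, of the B cell list, had 24.8 and 18.5 CPM in HACY and 7.03 and 9.27 CPM in CCL4. With it, all B cell markers summed to 61.8 and 49.8 CPM in HACY and 38.6 and 41.4 CPM in CCL4. The median log2 fold change of the tested B cell markers was 0.19. Among 11 of these tested, Cd22, a B cell receptor inhibitor, rose (1.41, SE 0.25, edgeR adjusted p = 0.0152), a call lost without HACY replicate 1, and none fell. Red cell precursor markers summed to 176 and 180 CPM in HACY and 132 and 131 CPM in CCL4, nearly all of it Tfrc, a transferrin receptor of many cell types, and Rhag was at 0 in every library. Of 4 tested, none was called by edgeR, DESeq2 or limma-voom, and 2 had an unadjusted p below 0.05, both higher. Hbb-bs, a beta globin, was called higher by edgeR when CCL4 replicate 2 was left out. The part of these cell types in the Cd24a values was not tested.

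Krt8 (chromosome 15, 101996698 to 102004482, minus strand) and Krt18 (chromosome 15, 102028180 to 102032027, plus strand) lie 23697 bases apart with no annotated gene wholly between them. Together they took 0.628% and 0.867% of all counts in HACY and 0.442% and 0.691% in CCL4. The stretch around each RefSeq start, from 100 bases before it to 20 after, is shown because these neighbours carry most counts of the 10 genes. Those of Cftr and Prom1 are added as the genes called in opposite directions. The sequences are from RefSeq (GRCm38.p6, the assembly also known as mm10), written 5′ to 3′ on the gene's strand, with capitals for any of the motifs named below.
Krt8 (chr15:102004323-102004442, minus strand): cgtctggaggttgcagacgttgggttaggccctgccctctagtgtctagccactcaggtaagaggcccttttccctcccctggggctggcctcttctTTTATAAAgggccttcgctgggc
Krt18 (chr15:102028116-102028235, plus strand): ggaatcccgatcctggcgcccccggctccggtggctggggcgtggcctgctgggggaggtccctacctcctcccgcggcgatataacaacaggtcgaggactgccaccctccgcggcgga
Cftr (chr6:18170587-18170706, plus strand): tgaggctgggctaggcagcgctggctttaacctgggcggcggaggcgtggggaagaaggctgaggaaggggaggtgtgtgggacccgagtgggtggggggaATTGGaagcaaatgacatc
Prom1 (chr5:44101717-44101836, minus strand): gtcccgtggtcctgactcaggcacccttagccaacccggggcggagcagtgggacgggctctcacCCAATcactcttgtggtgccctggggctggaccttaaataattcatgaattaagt
Of the 10 genes, 7 had an entry in the RefSeq promoter table. For Prom1, as for Spp1, it holds 2 starts, and the upstream one is shown. The RefSeq starts used for Krt8, Krt18 and Prom1 lie inside the gene bounds given here, which are from GENCODE. By those bounds the Krt8 and Prom1 stretches are wholly within the gene, and that of Krt18 is so in part. Both strands of the whole 300-base windows were searched for TATAAA, the TATA box, for CCAAT, for CTTTGAA or CTTTGAT, words bound by TCF/LEF factors of the Wnt pathway, and for GTGGGAA, a word bound by the NOTCH partner RBPJ. TATAAA was found in Krt8, in both orientations and overlapping itself across the RefSeq start, and in Spp1, and in 13.6% of all 32851 windows. CCAAT was found in Cftr, Prom1 and Spp1 and in 37.4% of all windows. GTGGGAA was found in Krt8, 135 bases before the RefSeq start and outside the stretch shown, and in 6.38% of all windows. The TCF/LEF words were in no window of the 7 genes and in 8.65% of all windows. These are matches of letters only.

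Krt8, the type II chain of the hepatocyte pair, had 3671 and 5227 CPM in HACY and 2023 and 3827 CPM in CCL4. The groups overlapped through CCL4 replicate 2, and HACY stood 0.61 higher on the log2 scale (SE 0.30, edgeR adjusted p = 0.228). With CCL4 replicate 2 left out that value was 1.14 (edgeR adjusted p = 0.0231). Krt18, the type I partner, had 2894 and 4119 CPM in HACY and 2107 and 2754 CPM in CCL4. Its groups did not overlap in CPM but did in FPKM, and HACY stood 0.53 higher on the log2 scale (SE 0.20, edgeR adjusted p = 0.135), not called with any 1 library left out. HACY replicate 2 was the highest library for both chains and CCL4 replicate 1 the lowest.

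Because the chains pair, their levels were set side by side per length. Krt8 over Krt18 in FPKM was 1.04 and 1.05 in HACY and 0.800 and 1.12 in CCL4. In counts the ratio was 1.27 in both HACY libraries and 0.960 and 1.39 in CCL4. The HACY ratios were alike and lay between those of the CCL4 libraries (exact two-sided permutation p = 1.00). The type II sum, Krt7 and Krt8, was 1613 ± 372 FPKM in HACY and 1130 ± 457 FPKM in CCL4 (SD, n = 2 each). The type I sum, Krt18 and Krt19, was 1539 ± 347 FPKM in HACY and 1158 ± 208 FPKM in CCL4. For both sums the groups overlapped, with CCL4 replicate 2 above HACY replicate 1 (exact two-sided permutation p = 0.667 for each). With 2 against 2 libraries that test cannot go below 0.333, so it cannot show a difference.

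The ductal keratins were a trace beside this pair. Krt7 (chromosome 15, 101411043 to 101430313), a type II chain of bile duct cells, had 12.2 and 7.66 CPM in HACY and 3.59 and 10.4 CPM in CCL4. Krt19 (chromosome 11, 100140810 to 100148665), the type I chain most used to mark bile ducts, had 12.7 and 17.3 CPM in HACY and 7.33 and 20.8 CPM in CCL4. For both genes the CCL4 libraries lay on either side of the HACY mean, with replicate 2 at 2.90 and 2.84 times replicate 1. Neither difference passed the test (Krt7 log2 0.51, SE 0.49, edgeR adjusted p = 0.536; Krt19 log2 0.09, SE 0.45, edgeR adjusted p = 0.921). The direction depended on single libraries. Without CCL4 replicate 2 both passed, at 1.47 for Krt7 and 1.03 for Krt19 (edgeR adjusted p = 0.0378 and 0.0448). Without CCL4 replicate 1 both were negative, at -0.06 and -0.48, and Krt19 was also negative without HACY replicate 2 (-0.15) and by library size alone (-0.08).

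Per 1000 units of Krt18, Krt19 had 4.87 and 4.35 in HACY and 3.44 and 7.59 in CCL4, all in FPKM. Per 1000 units of Krt8, Krt7 had 4.91 and 2.06 in HACY and 2.43 and 3.82 in CCL4. Both ratios overlapped between the groups (exact two-sided permutation p = 1.00). Of 23 other genes with a keratin or keratinocyte-associated name, 9 were at 0 in every library and 7 were tested. Krt17, a type I keratin of basal and stressed epithelia, rose (log2 1.63, SE 0.30, edgeR adjusted p = 0.0173), with 10.1 and 12.996 CPM in HACY and 3.13 and 4.34 CPM in CCL4. That call was lost without HACY replicate 2. Krt20, a keratin of gut epithelium, had a log2 fold change of 0.94 (SE 0.29, edgeR adjusted p = 0.0789). Without CCL4 replicate 2, Krt17, Krt20 and Krt80 were called higher. Among 14 genes that anchor keratin filaments to desmosomes and other junctions, none passed edgeR's threshold, 4 had an unadjusted p below 0.05, all higher, and DESeq2 called 3 (Plec, Ppl and Eppk1). Without CCL4 replicate 2, Plec and Ppl were called, and without HACY replicate 1, Eppk1.

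**Figure D3:**
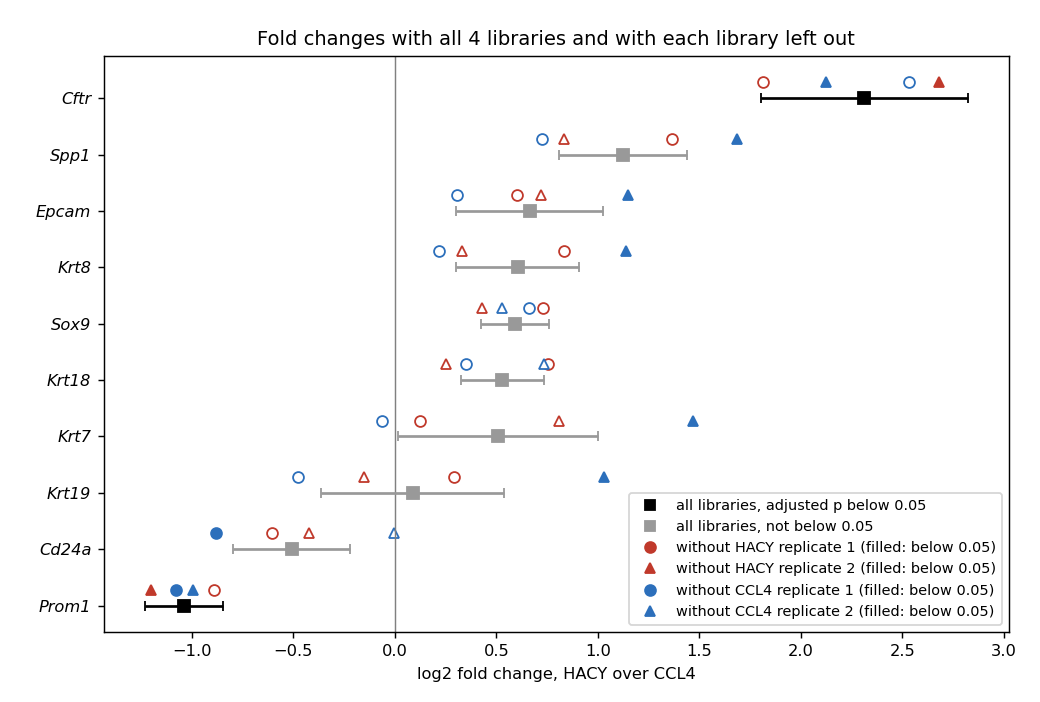
Log2 fold change of HACY over CCL4 for each gene with all libraries (squares, bars are ± 1 SE, black where the edgeR adjusted p is below 0.05) and with 1 library left out (circles and triangles, filled where below 0.05). Krt7 and Krt19 cross 0 and Cd24a reaches it, while Cftr stays above 1.8 and Prom1 below -0.8.

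Prom1 (chromosome 5, 43993620 to 44102032, minus strand) encodes prominin-1 (CD133), a protein of membrane protrusions on progenitor and bile duct cells. It had 12.3 and 15.4 CPM in HACY and 27.6 and 29.3 CPM in CCL4. Both HACY libraries were below both CCL4 libraries, and the replicates of each group were close. The mean fell to 13.9 ± 2.15 CPM in HACY, against 28.4 ± 1.18 CPM in CCL4 (SD, n = 2 each), a log2 fold change of -1.04 (SE 0.19, edgeR adjusted p = 0.0184). The call was lost without HACY replicate 1, where the value was -0.89 (edgeR adjusted p = 0.139). It was kept without each of the other libraries.

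Epcam (chromosome 17, 87635979 to 87651129, plus strand), an adhesion protein of epithelia that adult hepatocytes lack, had 6.06 and 5.62 CPM in HACY and 2.63 and 4.73 CPM in CCL4. These rest on 111 and 99 counts in HACY and 52 and 96 in CCL4. HACY was above CCL4 in every library, but the log2 fold change of 0.66 (SE 0.36) was not called (edgeR adjusted p = 0.265). It was called without CCL4 replicate 2 (1.15, edgeR adjusted p = 0.0496) and was 0.30 without CCL4 replicate 1. Of 16 partners and processing enzymes of EpCAM, 3 rose and none fell, beside 8.19% and 3.54% of all genes. The median was 0.01. The rises were Cd44, a hyaluronan receptor (0.74, SE 0.14), Ncstn, a gamma-secretase subunit (0.70, SE 0.14), and Adam10, a sheddase (0.55, SE 0.12), with edgeR adjusted p = 0.0189, 0.0216 and 0.0337. Only Cd44 was called without HACY replicate 1, none without HACY replicate 2, and only Ncstn without CCL4 replicate 1. Prss8, a membrane serine protease, had -0.86 (SE 0.23, edgeR adjusted p = 0.0509), and it was called lower by DESeq2 and under several other scalings and filters. Among 11 genes that bind, anchor or signal from CD24, Siglece, a sialic acid receptor of myeloid cells, rose (1.53, SE 0.19), as did Lyn, a Src family kinase (0.63, SE 0.15), and Pigk, an enzyme that attaches lipid anchors (0.66, SE 0.17), with edgeR adjusted p = 0.00461, 0.0393 and 0.0495. None fell, and the median was 0.66. Siglecg, also of this list, had 3.06 and 2.55 CPM in HACY and 1.37 and 2.86 CPM in CCL4 (0.41, SE 0.46, edgeR adjusted p = 0.596). With upper-quartile scaling or by library size alone, only Siglece was called. Leaving out HACY replicate 1 or CCL4 replicate 1 left only Siglece. There were 2 rises when HACY replicate 2 was left out and 6 when CCL4 replicate 2 was.

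Sox9 (chromosome 11, 112782224 to 112787760, plus strand), a transcription factor of bile duct and periportal hybrid cells, had 45.2 and 56.0 CPM in HACY and 35.1 and 32.0 CPM in CCL4. Both HACY libraries were above both CCL4 libraries. The log2 fold change of 0.59 (SE 0.17) missed the threshold with edgeR (adjusted p = 0.0631). It passed with DESeq2 (adjusted p = 0.0388) and with no filter on low counts (edgeR adjusted p = 0.0470). It was not called under the other scalings, with the 1 CPM filter, with limma or with the replicate block. With single libraries left out the value ran from 0.43 to 0.73. Of 15 tested genes of its network, Sox4, a related factor of progenitors, fell (-0.75, SE 0.17, edgeR adjusted p = 0.0304), and none rose. Next by p were Notch2, a receptor that induces Sox9 (0.45, SE 0.12, edgeR adjusted p = 0.0576), Cyr61, a YAP target (0.47, SE 0.13, edgeR adjusted p = 0.0595), and Wwtr1, the YAP partner TAZ (-0.38, SE 0.12, edgeR adjusted p = 0.0824). The Sox4 call was lost without either HACY library, and leaving out CCL4 replicate 2 gave 3 rises and 3 falls.

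Spp1 (chromosome 5, 104435118 to 104441050, plus strand) encodes osteopontin, a secreted integrin and CD44 ligand made by bile duct cells and by macrophages of injured liver. It had 2838 and 4120 CPM in HACY and 1083 and 2108 CPM in CCL4. The groups did not overlap, with means of 3479 ± 907 CPM in HACY and 1596 ± 725 CPM in CCL4 (SD, n = 2 each). The log2 fold change of 1.12 (SE 0.32) was not called (edgeR adjusted p = 0.0641). It was 1.68 without CCL4 replicate 2 (edgeR adjusted p = 0.00924) and 0.72 without CCL4 replicate 1 (edgeR adjusted p = 0.122). Of 15 receptors and processing enzymes of osteopontin, 7 rose and 1 fell, beside 8.19% and 3.54% of all genes. Their median was 0.56. On the log2 scale Mmp12, a macrophage elastase, rose by 1.11 (SE 0.13), Itgb1, an integrin chain, by 0.68 (SE 0.13), and Itga8, its partner in an osteopontin receptor, by 2.29 (SE 0.47), with edgeR adjusted p = 0.00347, 0.0216 and 0.0255. The fall, Mmp9, a gelatinase, was not called by DESeq2, by limma-voom, with no filter or without either HACY library. Rises numbered 3 when either replicate 1 was left out, 4 when HACY replicate 2 was and 10 when CCL4 replicate 2 was. With log2(FPKM + 1) only Mmp12 was called.

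Macrophage markers were higher in HACY beside Spp1. All 14 were tested, 12 rose and none fell, beside 8.19% and 3.54% of all genes. The median log2 fold change was 1.57. Their summed level was 4978 and 3424 CPM in HACY and 1392 and 1913 CPM in CCL4. In HACY, Spp1 was higher in replicate 2 and the macrophage sum in replicate 1, while in CCL4 both were higher in replicate 2. On the log2 scale Adgre1, the F4/80 antigen, rose by 2.43 (SE 0.20), Fcgr1, an Fc receptor, by 2.22 (SE 0.19), Marco, a scavenger receptor, by 1.86 (SE 0.17), and Mertk, a receptor for dying cells, by 1.55 (SE 0.18), each with an edgeR adjusted p of 0.00347 or less. The part of macrophages in the Spp1 values was not tested.

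Cftr (chromosome 6, 18170687 to 18322768, plus strand), the chloride channel that drives bile fluid secretion by cholangiocytes, had 3.71 and 2.04 CPM in HACY and 0.657 and 0.493 CPM in CCL4. These rest on 68 and 36 counts in HACY, with exact 95% Poisson intervals of 52.8 to 86.2 and 25.2 to 49.8. The CCL4 libraries had 13 and 10 counts, with intervals of 6.92 to 22.2 and 4.80 to 18.4, which cover counting error only. The intervals of the groups did not overlap. Means were 2.88 ± 1.18 CPM in HACY and 0.575 ± 0.116 CPM in CCL4 (SD, n = 2 each), 5.01-fold higher in HACY, and the fitted value was 2.31 on the log2 scale (SE 0.51, edgeR adjusted p = 0.0305). The call was lost without HACY replicate 1 (1.81, edgeR adjusted p = 0.260) and without CCL4 replicate 1 (2.53, edgeR adjusted p = 0.0583). Deposited FPKM were 0.506 and 0.262 in HACY and 0.0950 and 0.0300 in CCL4. For CCL4 replicate 2 the FPKM was lower than its count implies: counts per FPKM corresponded to 17260 bases there, against 7018 to 7414 bases in the other libraries. For the other 9 genes that length varied by at most 1.17 times between libraries. Of 15 tested partners and regulators of CFTR, none was called by edgeR, DESeq2 or limma-voom, and 1, the membrane fusion gene Snap23, had an unadjusted p below 0.05 (0.33, SE 0.13, edgeR adjusted p = 0.135). Ano1, another chloride channel of bile ducts, had -0.71 (SE 0.46, edgeR adjusted p = 0.341).

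Of 40 other biliary and progenitor markers listed, all were in the tables and 32 were tested. There were 2 rises and 1 fall, with a median log2 fold change of 0.07, against -0.01 over all genes. These counts are near the shares over all genes, 8.19% higher and 3.54% lower. The rises were Anxa4, an annexin of secretory epithelia (0.61, SE 0.12, edgeR adjusted p = 0.0238), and Itga6, a laminin receptor chain (0.57, SE 0.12, edgeR adjusted p = 0.0269). The fall was Sox4, given above. By library size alone there were no rises and 2 falls, with a median of -0.10. Leaving out CCL4 replicate 2 gave 6 rises and 1 fall, and leaving out CCL4 replicate 1 gave 2 rises and 3 falls. Leaving out HACY replicate 2 gave neither, and leaving out HACY replicate 1 gave 2 other rises, Cldn4 and Cdh1. Dmbt1 was at 0 in every library. Their summed level was 2093 and 2385 CPM in HACY and 1763 and 2163 CPM in CCL4.

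**Figure D4:**
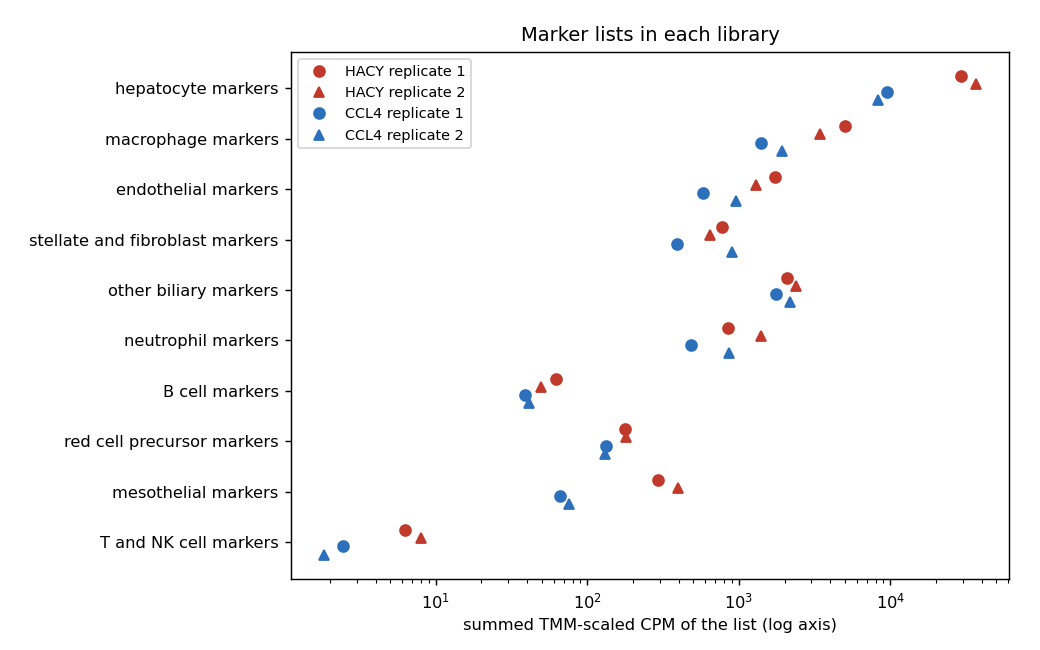
Summed TMM-scaled CPM of each marker list (log axis) in each library. Hepatocyte, macrophage, endothelial, B cell, red cell precursor, mesothelial, and T and NK sums are higher in both HACY libraries than in either CCL4 library. Neutrophil, stellate and fibroblast, and other biliary sums overlap between the groups, the biliary ones at 1763 to 2385 CPM.

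In summed CPM, which is not scaled to transcript length, hepatocyte markers stood above the other biliary markers and differed between the groups. The hepatocyte list summed to 29219 and 36801 CPM in HACY and 9507 and 8238 CPM in CCL4. Most of it was Alb, the gene of albumin, with 24005 and 30358 CPM in HACY and 6971 and 5497 CPM in CCL4. Per length the list ran from Pck1, at 0.210 to 0.522 FPKM, to Alb, at 2368 to 11353 FPKM. Of 13 tested, 10 rose and none fell, beside 8.19% and 3.54% of all genes. The median log2 fold change was 1.27. On the log2 scale Alb rose by 2.12 (SE 0.19), Fgb, a fibrinogen chain, by 2.11 (SE 0.12), Serpinc1, antithrombin, by 1.74 (SE 0.14), and Apoa1, an apolipoprotein, by 1.27 (SE 0.12), each with an edgeR adjusted p of 0.00191 or less. Without HACY replicate 2, 7 rose. Krt8 and Krt18, which hepatocytes express too, had fold changes of 0.61 and 0.53 beside these. The part of hepatocyte RNA in the Krt8 and Krt18 values was not tested.

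Mesothelial cells, which also carry KRT7, KRT8, KRT18 and KRT19, were represented by 12 markers that summed to 293 and 396 CPM in HACY and 66.0 and 75.4 CPM in CCL4. Prg4, lubricin, had 239.97 and 346 CPM of that in HACY and 19.7 and 21.2 CPM in CCL4 (log2 3.84, SE 0.21, edgeR adjusted p = 9.09e-04). Of 10 tested, 5 had a positive fold change, with a median of 0.01 on the log2 scale. Wt1 had -0.72 (SE 0.47, edgeR adjusted p = 0.348) and Bnc1 -0.69 (SE 0.67, edgeR adjusted p = 0.537). Msln, mesothelin, had 2.46 and 1.76 CPM in HACY and 1.62 and 3.11 CPM in CCL4, and Upk3b was at 1.33 CPM or less in every library. Upk1b rose (2.13, SE 0.54, edgeR adjusted p = 0.0475), a call lost with any 1 library left out, and none fell among 10 tested. The part of mesothelial cells in the values of Krt7 and Krt19 was not tested.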

How the data were processed

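The 4 libraries are bulk RNA of MACS-sorted CD24+ mouse liver cells, sequenced from both ends after a strand-marking mRNA kit, per the labels' protocols. Groups and replicate numbers come from the titles. Each deposited table gives, per the file headers, a raw count and an FPKM per gene symbol. Counts are whole numbers, and FPKM were scaled by the authors to transcript length and library size, per the file headers. Trimmomatic, HISAT2, Cufflinks, HTSeq and DESeq and the build mm10 are named, per the submitters' processing notes. The annotation and the strand setting of counting were not given in the sources used here. Krt7, Krt8, Spp1, Cftr and Prom1 overlap other annotated genes, and Cd24a, Krt8 and Krt18 may share reads with near-identical copies, so those counts are uncertain.

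The main test used edgeR 4.0.16 (R 4.3.3) on the counts: filterByExpr (minimum count 10, minimum total 15), TMM, robust quasi-likelihood with treatment as the only term, two-sided, adjusted over 13428 genes. Each SE was taken as the fold change on the log2 scale over the root of its F statistic. The 10 genes, the lists, the tests and the rule for named genes (all 10, up to 4 per list with the smallest p, and the 5 nearest to Cd24a, predicted genes left out) were chosen with earlier results of these data known. A few genes (Krt80, Cldn3, Cldn4, Cdh1, Mmp9, Msln, Upk3b, Dmbt1, Rhag, Siglecg, Tfrc) were named after their values were seen. Locations are from GENCODE M21 (GRCm38). Exact permutation tests ran over libraries, and scripts were tested on simulated data. A chi-square comparison of replicates gave 19.0 (HACY) and 34.0 (CCL4) per degree of freedom, far above sampling noise. Of the rows, 27 had dates for names, none of them described here. Alternatives were other scalings and filters, DESeq2 1.42.0, limma 3.58.1 (voom, and log2(FPKM + 1) for genes with a mean of at least 1 FPKM), a block on replicate number and each library left out.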

Additional observations from a re-analysis of the deposited data

How the results depend on the processing

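Prom1 stayed lower in HACY in all settings and was called in all but 1, with values from -1.21 to -0.77. Cftr stayed higher in all settings that could test it. With log2(FPKM + 1) it was not tested, its mean being under 1 FPKM, and no gene of the 10 was then called higher. DESeq2 and no filter called 2 genes higher, Sox9 being added. Without single libraries the 10 genes had 0 to 6 rises and 0 to 2 falls, and all genes had 629 to 3047 calls, with 530 to 1840 higher and 99 to 1207 lower. Over all genes, 1100 were higher and 476 lower. By library size alone 1355 were lower, with DESeq2 733 were lower, and with log2(FPKM + 1) 611 were higher. The share of calls that were higher was 69.8% with TMM, 38.7% by library size, which moved the median of all genes to -0.18, 60.1% with upper-quartile scaling and 50.4% with FPKM. Of the other biliary markers, none was higher by library size (2 lower) or with FPKM, and 4 were higher with DESeq2. Without single libraries they had 0 to 6 rises and 0 to 3 falls, alternatives added after seeing the data. Directions turned for Krt7 (-0.062 to 1.47 over the left-out libraries) and Krt19 (-0.48 to 1.03 over the left-out libraries, and -0.080 by library size). Krt7 turned with CCL4 replicate 1 left out, Krt19 with that library or HACY replicate 2 (-0.15) left out. The cause was not tested. The labels give both groups replicates 1 and 2 and name no pairing. Same-numbered libraries did not deviate together (r = -0.10 across genes). With 2 libraries per group that is a single comparison, which cannot exclude a pairing. With the replicate block 4 of the 10 genes were higher, Krt8, Krt18 and Spp1 being added (edgeR adjusted p = 0.0331, 0.0358 and 0.00497). Where a library was left out, the lone library of its group was assumed to vary like the others. Depth limits Cftr most, at 10 to 68 counts.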

Other observations

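Among endothelial markers, 4 of 12 rose and 1 fell, beside 8.19% and 3.54% of all genes. The number of rises changed widely with single libraries left out. Lyve1, a hyaluronan receptor of liver sinusoids, had 27.3 and 26.5 CPM in HACY and 2.02 and 5.18 CPM in CCL4 (log2 2.90, SE 0.39, edgeR adjusted p = 0.00596). Clec4g, a lectin of the same sinusoidal cells, had 0.710 and 0.738 CPM in HACY and 1.92 and 3.40 CPM in CCL4 (log2 -1.87, edgeR adjusted p = 0.0495) and was chosen after its values were seen. It was not called by DESeq2 or limma-voom, with the 1 CPM filter or the replicate block, or without either HACY library or CCL4 replicate 2. Stellate and fibroblast markers, 11 of them tested, had no call by edgeR or limma-voom, and Acta2, smooth muscle actin, was called higher by DESeq2 and had the 1 unadjusted p below 0.05. Leaving out CCL4 replicate 1 gave 3 falls, and leaving out CCL4 replicate 2 gave 6 rises. Their sum was 768 and 645 CPM in HACY and 391.8 and 894 CPM in CCL4. T and NK cell markers summed to 6.28 and 8.00 CPM in HACY and 2.43 and 1.82 CPM in CCL4, and of 3 tested Gzmb, a cytotoxic protease, was higher (log2 2.995, SE 0.70, edgeR adjusted p = 0.0371), a call lost without HACY replicate 2 or CCL4 replicate 2.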
